A study of Mus musculus with 3 samples.

Results

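The mitogen-activated protein kinase (MAPK) cascade genes and the dual-specificity phosphatase (Dusp) genes were examined for the histone mark H3K36me3, which Setd2 deposits on lysine 36 of histone H3 over transcribed genes. The members were the protein-coding genes of GENCODE M21 whose symbol begins with Map2k, Map3k, Map4k or Mapk, or with Dusp followed by a digit. The rule gave 78 genes of 21951 protein-coding genes. H3K36me3 had been profiled by chromatin immunoprecipitation sequencing (ChIP-seq) to map the mark in regulatory T cells (Treg cells) and to compare tissues. The cells were CD3+CD4+Foxp3-YFP+ Treg cells at steady state from adult C57BL/6 mice with the label genotype Foxp3-YFP (Foxp3Cre-YFP in the methods of the study), in which the Foxp3 locus drives Cre and a yellow fluorescent protein. Spleen and large intestine each gave 1 library, made from cells pooled over 7 male and 7 female mice. There were no replicates, so each difference below is between a pair of libraries, has no replicate check and was not tested.

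In the cascade, MAP4K and MAP3K enzymes receive signals from the T cell receptor, cytokine receptors and stress. MAP4K enzymes act on MAP3K enzymes, and MAP3K enzymes phosphorylate MAP2K enzymes. MAP2K enzymes in turn phosphorylate the MAP kinases ERK, JNK and p38 on a threonine and a tyrosine. Dual-specificity phosphatases remove both phosphates and so end the signal. In T cells the cascade connects receptor engagement to the transcription factors of the AP-1 family, and its strength bears on activation, cytokine production and survival. H3K36me3 builds up in the body of a gene behind elongating RNA polymerase and is usually densest towards the 3′ end.

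Values are the deposited mean RPKM coverage of each peak (read coverage scaled to length and sequencing depth), added up over peaks centred inside the gene body. RPKM sums are given as deposited. Ratios are log2 of large intestine over spleen with a pseudocount of 0.5 RPKM, after the log2 ratio of the library totals (0.046) was subtracted. A gene was called when it was at least 1.5-fold apart and its approximate 95% counting interval left out 0. These intervals, given in parentheses as "from ... to ...", cover counting error only. From the step size of the values, the spleen library held about 29600000 mapped reads and the large intestine library 38100000, and 1 read over a 20-bp bin was worth 1.69 and 1.31 RPKM. A short peak with a low value therefore rests on few reads.

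The labelled cell type was checked first. All 5 T cell genes listed as markers (Lck, Cd4, Cd3g, Cd3d and Cd3e) had peaks, with summed values of 428 RPKM in spleen against 395 RPKM in large intestine. All 4 Treg cell genes (Ctla4, Il2ra, Ikzf4 and Foxp3) had peaks too, at 568 and 608 RPKM. Plasma cell markers had a peak in 0 of 3 genes. Of 2 CD8 T cell markers only Cd8b1 had peaks, at 21.1 and 9.46 RPKM. Pax5 and Cd79a, but not Ms4a1, gave the B cell list 51.3 and 39.7 RPKM, and Cd68 and Csf1r, but not Itgam and Lyz2, gave the myeloid list 29.7 and 31.3 RPKM. Of 5 intestinal epithelium markers, Vil1 and Epcam had peaks that summed to 29.9 RPKM in spleen against 59.8 RPKM in large intestine, and Cdh1, Krt8 and Krt20 had none. The part of such cells in the ratios was not tested, and in pooled cells fewer marked cells and less of the mark per cell cannot be told apart.

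H3K36me3 peaks were found in 55 of the 78 genes (70.5%), against 45.7% of all protein-coding genes. The 23 genes with no peak were Map3k9, Map3k10, Map3k19, Map3k20, Map3k21, Map3k7cl, Mapk4, Mapk10, Mapk12, Mapk13, Mapk15, Mapk8ip2 and 11 Dusp genes (Dusp3, Dusp8, Dusp9, Dusp13, Dusp15, Dusp18, Dusp21, Dusp23, Dusp26, Dusp27 and Dusp28). Every MAP4K and MAP2K gene and all MAPK-activated kinases carried a peak. By contrast, peaks were present in 5 of 14 Dusp genes outside the MAP kinase phosphatase class, which is the class with a kinase interaction motif and had peaks in 8 of 10 genes. Among the JNK genes, Mapk8 and Mapk9 were marked and Mapk10, the form known from neurons, was not. Among the p38 genes, Mapk14 and Mapk11 were marked and Mapk12 and Mapk13 were not.

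Of 774 peaks in these 55 genes (median 437 bp), 605 lay in introns, 91 in exons and 78 within 1 kb of a transcript start. Most of the summed spleen value came from peaks centred beyond the midpoint of the gene in 47 of the 55 genes (85.5%). The share was 73.2% of all protein-coding genes with a peak. Peaks were not weighted by length here, and a long peak was counted whole on the side of its centre. Map3k13 was at the other end of this range: its 8 peaks lay between 4.71% and 12.1% of the gene length from the start. In large intestine 426 of the 774 peaks (55.0%) were higher, against 48.6% of the 114125 peaks in coding gene bodies.

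Levels between genes were compared per length, as peak signal averaged over every base of the gene body (bases outside peaks counted as 0), with large intestine scaled to the spleen total. In spleen the highest levels belonged to Map4k2, Dusp2 and Dusp5, and in large intestine to Dusp5, Map4k2 and Map3k11. Map4k2 (germinal centre kinase) had 35.0 RPKM per base in spleen and 33.4 in large intestine, the percentiles 99.7 and 99.5 of coding genes with a peak. Dusp5, a nuclear phosphatase of ERK, had 25.8 and 34.6 RPKM per base, and its peaks covered 97.3% of the gene. Dusp2, a nuclear phosphatase induced in activated lymphocytes, had 26.2 and 17.6 RPKM per base, and Map3k11 (MLK3) 25.7 and 28.3. At the low end, Mapk8 (JNK1) had 0.12 and 0.11 RPKM per base, Dusp16 0.30 and 0.76, and Map2k6 0.41 and 0.27. The median member lay at 5.15 RPKM per base in spleen, beside 4.20 for all coding genes with a peak.

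**Figure D1:**
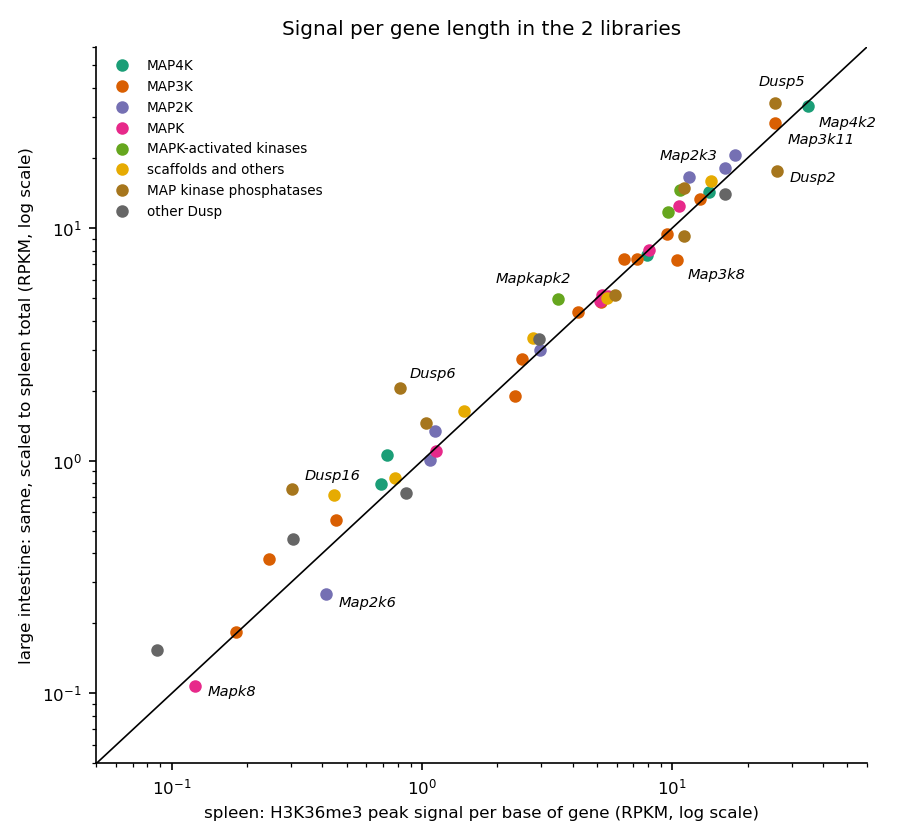
H3K36me3 peak signal per base of gene body (RPKM, log axes) of 54 of the genes with a peak, spleen on the x axis and large intestine, scaled to the spleen total, on the y axis, with 1 point per gene coloured by role and the diagonal marking equal levels. Map4k2, Dusp5 and Map3k11 sit at the top right, Dusp16 (0.30 against 0.76) lies farthest above the diagonal among the genes below 0.5 RPKM in spleen, and Map2k6 (0.41 against 0.27) lies below it.

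Summed signal reached 20 RPKM over both libraries in 53 of the 55 genes. Dusp14 (6.01 RPKM in spleen, 10.9 in large intestine) and Dusp6 (5.30 and 13.8 RPKM) lay below this minimum, and Mapk1ip1 (12.3 and 14.2 RPKM) lay just above it. Of the 53 genes, 4 were called higher in large intestine (7.55%; background 7.28% of 9456 genes): Dusp16, Mapkapk2, Dusp22 and Map3k13. Map2k6 alone was called higher in spleen (1.89%; background 4.54%). Neither share was above its background by more than a single gene. Small differences were commoner: the interval lay above 0 in 19 genes (35.8%; background 18.5%) and below 0 in 7 (13.2%; background 15.9%). The median counting error of the log2 ratio was 0.12 in these genes and 0.15 in all genes, so intervals were narrower here. The median log2 ratio was 0.13 (quartiles -0.12 and 0.31), beside 0.0045 for all genes. After correction for GC content it was 0.010, beside -0.013 for all genes.

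**Figure D2:**
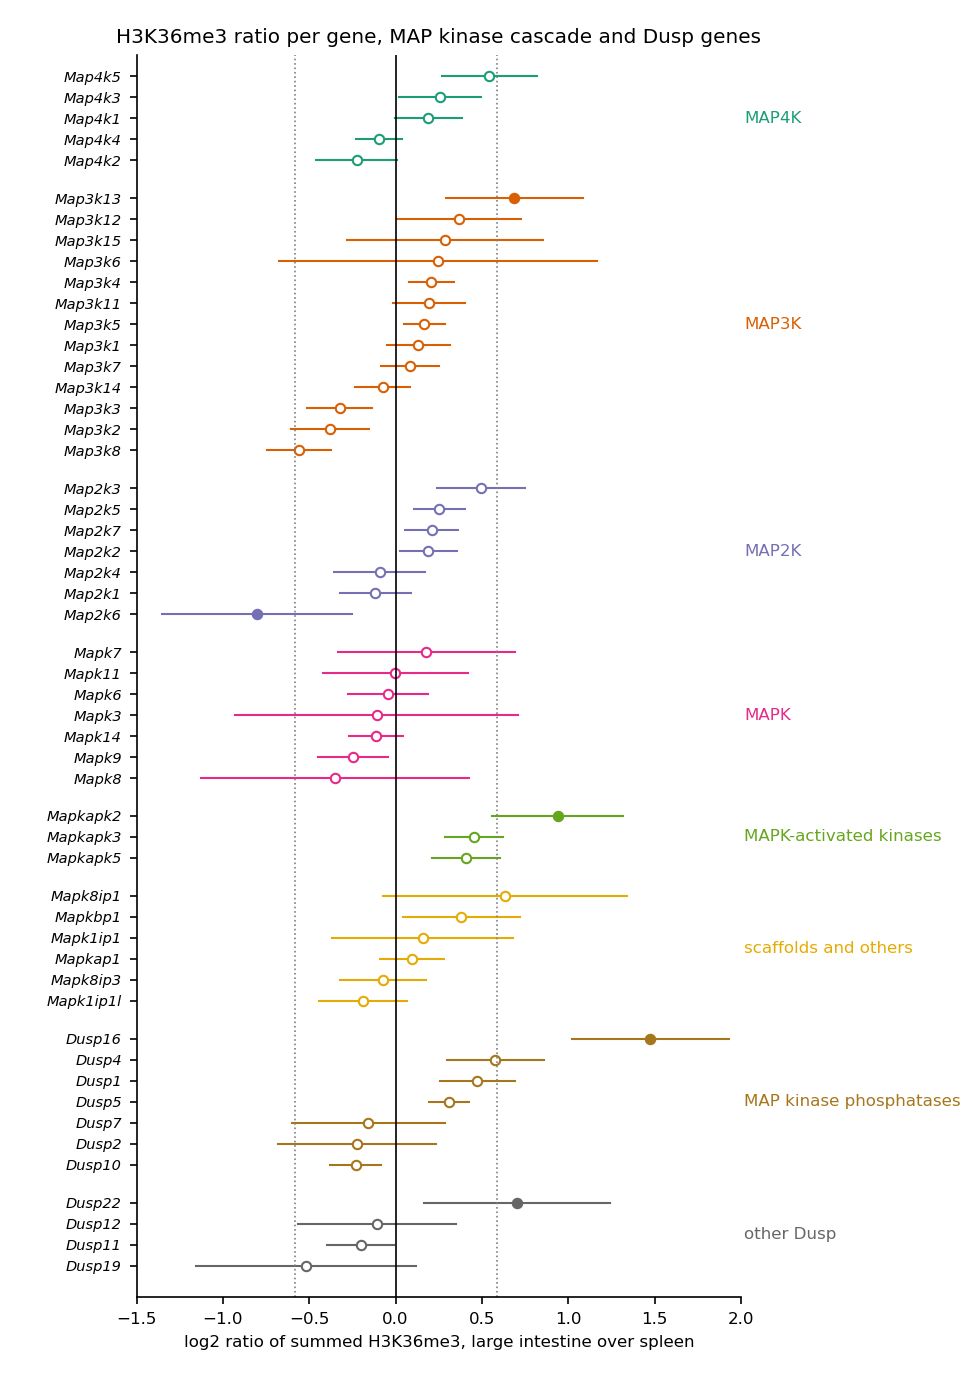
Log2 ratio of summed H3K36me3, large intestine over spleen, for 52 of the genes with at least 20 RPKM, grouped by role. Points are ratios, bars approximate 95% counting intervals, filled points called genes and dotted lines 1.5-fold; Dusp16 (1.48) is farthest to the right, Map2k6 (-0.80) farthest to the left, and the 3 MAPK-activated kinases all lie right of 0.

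The sequences below show a stretch of 1 intron peak in each of the 5 called genes, while the calls rest on all peaks of a gene. For each gene the intron peak with the largest scaled difference was taken, so its values are a description and not support for the call. The central 200 bases are printed 5′ to 3′ on the strand of the gene, from mm10, with CG dinucleotides in capitals, because the ratios moved with GC content.
Dusp16, chr6:134728699-134728898, minus strand: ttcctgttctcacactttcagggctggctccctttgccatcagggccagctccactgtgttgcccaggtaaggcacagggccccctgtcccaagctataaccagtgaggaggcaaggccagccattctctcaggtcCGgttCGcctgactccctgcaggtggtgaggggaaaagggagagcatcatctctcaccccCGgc
Mapkapk2, chr1:131088819-131089018, minus strand: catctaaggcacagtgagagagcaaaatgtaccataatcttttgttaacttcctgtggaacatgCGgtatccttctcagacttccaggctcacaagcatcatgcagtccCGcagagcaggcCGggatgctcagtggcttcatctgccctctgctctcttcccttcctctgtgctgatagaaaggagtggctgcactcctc
Dusp22, chr13:30674248-30674447, plus strand: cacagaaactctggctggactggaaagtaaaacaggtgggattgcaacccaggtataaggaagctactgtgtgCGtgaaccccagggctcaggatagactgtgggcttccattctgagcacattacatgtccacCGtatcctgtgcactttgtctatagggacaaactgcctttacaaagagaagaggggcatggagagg
Map3k13, chr16:21808055-21808254, plus strand: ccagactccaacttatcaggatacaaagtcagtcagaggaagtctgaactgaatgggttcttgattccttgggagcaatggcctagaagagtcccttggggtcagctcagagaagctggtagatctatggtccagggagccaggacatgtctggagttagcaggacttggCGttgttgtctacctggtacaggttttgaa
Map2k6, chr11:110497160-110497359, plus strand: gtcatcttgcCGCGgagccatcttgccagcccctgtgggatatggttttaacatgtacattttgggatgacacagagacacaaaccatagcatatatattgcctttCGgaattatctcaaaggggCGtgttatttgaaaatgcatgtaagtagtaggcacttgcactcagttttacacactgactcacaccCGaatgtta
GC content was 60.5% in Dusp16, 51.5% in Mapkapk2, 49.5% in Map3k13 and 43.5% in Map2k6, with Dusp22 between Mapkapk2 and Map3k13. The stretches held 3 CG dinucleotides in Dusp16, 3 in Mapkapk2, 2 in Dusp22, 1 in Map3k13 and 5 in Map2k6. The Map2k6 stretch, higher in spleen, thus had the lowest GC content and the most CG dinucleotides. The whole peaks measured 3.55 RPKM in spleen against 18.1 RPKM in large intestine for Dusp16, 3.10 and 15.2 for Mapkapk2, 2.80 and 11.6 for Dusp22, 6.81 and 16.1 for Map3k13, and 9.28 and 1.66 for Map2k6. A value of 1.66 RPKM in large intestine is little more than the worth of 1 read over 1 bin.

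MAP4K genes open the cascade. Map4k5 (KHS) had 184 RPKM in spleen against 277 RPKM in large intestine (log2 ratio 0.54, from 0.27 to 0.82), with 21 of 26 peaks higher in large intestine. It stayed just under 1.5-fold, and its strongest peak alone had -0.14. Its relative Map4k3 (GLK), which acts downstream of the T cell receptor, had 220 and 272 RPKM and a ratio of 0.26 (from 0.021 to 0.49). Map4k1 (HPK1), a negative regulator of T cell receptor signalling, had 123 and 145 RPKM, and its interval just included 0 (from -0.0038 to 0.38). Map4k4 and Map4k2 had ratios of -0.096 and -0.23, also with intervals that included 0. None of the 5 genes was called (background 7.28% in large intestine and 4.54% in spleen).

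Of 18 MAP3K genes 13 had enough signal, and Map3k13 was the only one called (background 7.28% in large intestine and 4.54% in spleen). Map3k13 (LZK), a kinase upstream of JNK, had 60.9 RPKM in spleen against 101.7 RPKM in large intestine (log2 ratio 0.69, from 0.29 to 1.08). All 8 of its peaks were higher in large intestine and all lay in introns near the start of the gene, which spans chr16:21794346-21933439. The peak at 12.1% of the gene length had the largest ratio (2.11), and the strongest peak in spleen differed little (11.9 against 14.6 RPKM). The call was lost when peaks were weighted by length (0.57) and with the strongest peak (0.24). With assignment to the nearest transcript start most of its peak signal went to other genes, and too little was left to compare. Its closest relative Map3k12 (DLK) had a ratio of 0.37 (from 0.0082 to 0.73), which fell to -0.0074 with length weighting and to -0.0045 with its strongest peak. The difference between them was -0.32 (from -0.85 to 0.21).

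Map3k8 (TPL2), which activates the ERK branch downstream of Toll-like and TNF receptors, was higher in spleen, with 152 RPKM against 106 RPKM in large intestine. Its ratio of -0.56 (from -0.75 to -0.37) missed 1.5-fold by little, and all 11 peaks were lower in large intestine. Map3k2 and Map3k3, the closely related MEKK2 and MEKK3, stood on the same side, at -0.38 (from -0.60 to -0.16) and -0.32 (from -0.51 to -0.14). Map3k3 was at -0.011 with its strongest peak and turned to 0.070 with assignment to the nearest transcript start. Opposite them, Map3k5 (ASK1), a stress-activated kinase, had 675 RPKM in spleen, 782 RPKM in large intestine and a ratio of 0.17 (from 0.047 to 0.29), but -0.071 in its strongest peak. Map3k4, which binds Gadd45 proteins, had 0.21 (from 0.075 to 0.34). Map3k14 (NIK), the kinase of the noncanonical NF-kB pathway, had -0.074 (from -0.23 to 0.084), and Map3k7 (TAK1) 0.084 (from -0.085 to 0.25). After GC correction Map3k14 had -0.22 (from -0.39 to -0.060), Map3k7 0.19 (from 0.025 to 0.36) and Map3k4 0.11 (from -0.024 to 0.24). Among the 13 MAP3K genes 4 intervals lay above 0 (30.8%, background 18.5%) and 3 below (23.1%, background 15.9%). With GC correction 3 lay above 0 (23.1%, background 12.3%) and 4 below (30.8%, background 14.1%).

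The MAP2K genes differed among themselves within a single branch. Map2k3 and Map2k6 both phosphorylate p38. Map2k6 had 43.8 RPKM in spleen against 25.8 RPKM in large intestine (log2 ratio -0.80, from -1.35 to -0.25), and all 4 of its peaks, placed between 74.2% and 90.2% of the gene length, were lower in large intestine. Map2k3 had 73.5 and 107.1 RPKM, a ratio of 0.49 (from 0.24 to 0.75), with 5 of 6 peaks higher in large intestine. The pair differed by 1.29 (from 0.69 to 1.90), and by 1.00 after GC correction. Map2k6 was also the weaker of them, with peaks over 3.51% of its gene against 68.9% in Map2k3.

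In the ERK branch, Map2k1 (MEK1) had 268 RPKM in spleen against 255 RPKM in large intestine (ratio -0.12, from -0.32 to 0.089). Map2k2 (MEK2) had 139 and 164 RPKM, a ratio of 0.19 (from 0.024 to 0.36), with 7 of 7 peaks higher in large intestine. The ratio of Map2k2 after GC correction was 0.014. In the JNK branch, Map2k4 had 182 and 176 RPKM (ratio -0.093, from -0.36 to 0.17). Map2k7 had 25.2 and 30.1 RPKM in a single peak of 7203 bp that also lay in another coding gene (ratio 0.21, from 0.054 to 0.36), and -0.020 after GC correction. Map2k5, the activator of ERK5, had 605 and 745 RPKM over 74 peaks, of which 50 were higher in large intestine, and a ratio of 0.25 (from 0.10 to 0.40). Apart from Map2k3 and Map2k6, the MAP2K genes had ratios between -0.12 and 0.25.

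Of the MAP kinases themselves, 0 of 8 genes were called (background 7.28% in large intestine and 4.54% in spleen). Their median ratio was -0.077, and -0.17 after GC correction, with 1 ratio above 0 and 7 below. Among these 7, Mapk11 (-0.00061, from -0.42 to 0.42) was very near 0 and turned to 0.045 without scaling. Mapk3 (ERK1), a kinase of the ERK branch, was weakly marked, at 20.6 RPKM in spleen against 19.7 RPKM in large intestine over 2 peaks, and its ratio of -0.11 (from -0.93 to 0.71) was loosely determined. Averaged over every base of the gene body, of which its peaks covered 11.6%, it had 1.14 RPKM per base in spleen. With every peak that overlapped the gene body counted, Mapk3 had 3 peaks and its ratio turned to 0.25. Mapk14 (p38 alpha) had 329 and 314 RPKM, a ratio of -0.11 (from -0.27 to 0.042). Mapk9 (JNK2) had 233 and 202 RPKM and a ratio of -0.25 (from -0.45 to -0.044), the only interval of the 8 that left out 0. Of all genes, 18.5% had an interval above 0 and 15.9% below. Mapk8 (JNK1) had 31.8 and 25.6 RPKM (ratio -0.35, from -1.13 to 0.43). Mapk9 carried more of the mark than Mapk8, at 5.54 against 0.12 RPKM per base in spleen.

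The 3 MAPK-activated kinases, which p38 phosphorylates and which act on cytokine mRNA stability and other targets, all stood higher in large intestine. Mapkapk2 (MK2), on chr1:131053700-131097826, had 70.4 RPKM in spleen against 139.7 RPKM in large intestine (log2 ratio 0.94, from 0.56 to 1.32), and each of its 10 peaks was higher there. Its peaks were unequal: the longest, of 7512 bp near the 3′ end, measured 23.5 and 32.4 RPKM (ratio 0.41), and 9 peaks under 1 kb carried the larger ratios, up to 2.71. With peaks weighted by length the gene had a ratio of 0.45 and was no longer called. Mapkapk3 had 249 and 352 RPKM, a ratio of 0.45 (from 0.28 to 0.62) and 20 of 22 peaks higher in large intestine. Mapkapk5 had 127 and 175 RPKM and a ratio of 0.41 (from 0.21 to 0.61), but all 9 of its peaks also lay in another coding gene. In all, 38 of 41 peaks of the class were higher in large intestine, against 48.6% of all peaks in coding gene bodies. Peaks of the same gene are not replicates. All 3 intervals lay above 0, where 18.5% of all genes had such an interval, and 1 of the 3 genes was called (background 7.28%). Mapkapk2 exceeded Mapkapk3 by 0.48 (from 0.068 to 0.90) and Mapkapk5 by 0.53 (from 0.10 to 0.96) with summed peaks. Its distance from Mapkapk3 was lost with length weighting (0.45 and 0.41) and turned with the strongest peak (0.41 and 0.44).

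Of the scaffolds and other proteins with a Mapk symbol, 6 had enough signal and none was called (background 7.28% in large intestine and 4.54% in spleen). Mapk8ip1 (JIP1), a scaffold of the JNK module, had 27.2 RPKM in spleen against 43.8 RPKM in large intestine; its ratio of 0.63 passed 1.5-fold, but the interval (from -0.076 to 1.34) included 0. Mapkbp1 had 76.8 and 103.4 RPKM, a ratio of 0.38 (from 0.041 to 0.72). Mapkap1 (SIN1), a subunit of mTORC2, had 416 and 458 RPKM, a ratio of 0.093 (from -0.092 to 0.28).

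Among the phosphatases with a kinase interaction motif, Dusp16 (MKP-7), which acts on JNK and p38, differed most of all the cascade and Dusp genes. Dusp16 had 38.4 RPKM in spleen against 111.1 RPKM in large intestine (log2 ratio 1.48, from 1.02 to 1.93), or 2.78-fold. It was the only one of the 53 genes past 2-fold. Of all 9456 genes, 304 were past 2-fold towards large intestine and 171 towards spleen. Its 9 peaks lay between 82.7% and 97.3% of the gene length, on chr6:134715468-134792625, and each was higher in large intestine, with ratios from 0.84 to 2.19. The strongest peak in spleen had 9.34 and 18.0 RPKM. After GC correction the ratio of the gene was 1.40. Dusp10 (MKP-5), which shares the substrates JNK and p38, had 393 and 345 RPKM and a ratio of -0.23 (from -0.38 to -0.083), with 6 of 31 peaks higher in large intestine. The 2 genes differed by -1.71 (from -2.18 to -1.23), Dusp10 minus Dusp16. Per base Dusp10 still had more signal in both libraries, at 5.91 and 5.15 RPKM.

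The inducible nuclear phosphatases stood on either side of 0. Dusp4 (MKP-2) had 80.8 RPKM in spleen against 124.7 RPKM in large intestine (ratio 0.58, from 0.30 to 0.86), just under 1.5-fold, with 7 of 7 peaks higher in large intestine. After GC correction it had 0.35. Dusp1 (MKP-1), which acts on p38 and JNK, had 20.7 and 29.9 RPKM in a single peak of 4058 bp and a ratio of 0.47 (from 0.25 to 0.69). Its annotated body is 56539 bp long, so that the peak fills 5.02% of it and its level per base is taken over that whole length. Dusp5 had 63.5 and 81.2 RPKM, a ratio of 0.31 (from 0.19 to 0.42). Dusp2 (PAC-1) had 36.4 and 32.1 RPKM and a ratio of -0.22 (from -0.68 to 0.23). Its 2 peaks disagreed: the short peak at the start had 5.78 and 11.5 RPKM, and the peak of 2717 bp over the rest of the gene had 30.6 and 20.5 RPKM. Dusp2 was called higher in spleen once peaks were weighted by length. The 7 phosphatases with a kinase interaction motif and enough signal, Dusp16, Dusp10 and Dusp7 included, had a median ratio of 0.31. Their intervals lay above 0 in 4 genes (57.1%, background 18.5%), Dusp16 among them. The interval lay below 0 in 1 gene, Dusp10 (14.3%, background 15.9%).

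**Figure D3:**
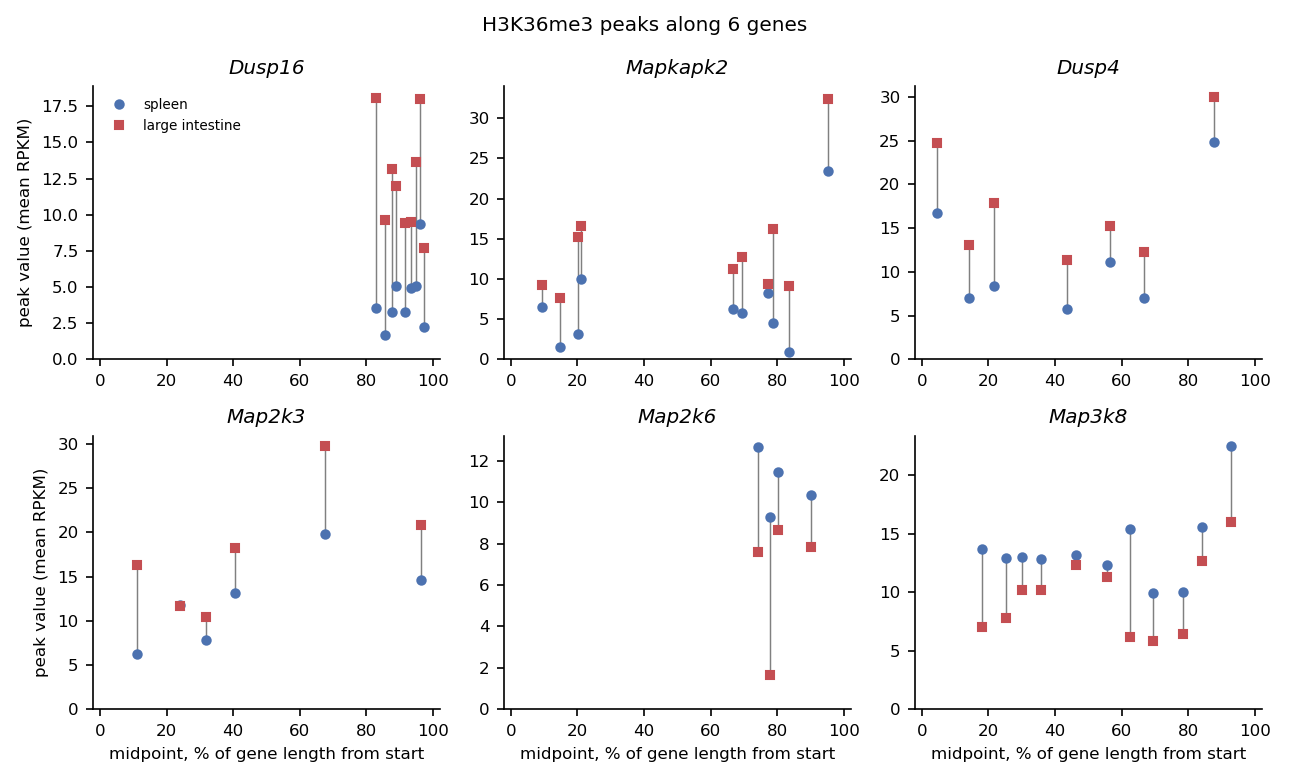
Peak values (mean RPKM as deposited) along 6 genes, with the peak midpoint in percent of gene length from the start on the x axis, circles for spleen, squares for large intestine, and a line joining the values of 1 peak. In Dusp16, Mapkapk2 and Dusp4 every square lies above its circle, in Map2k6 and Map3k8 every square lies below, and in Map2k3 5 of 6 lie above.

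Of the remaining Dusp genes, 4 had enough signal. Dusp22 (JKAP), which dephosphorylates Lck and damps T cell receptor signalling, had 43.5 RPKM in spleen against 73.4 RPKM in large intestine (log2 ratio 0.70, from 0.16 to 1.24), with 6 of 7 peaks higher in large intestine. The longest of these peaks measured 536 bp, and the ratio was 0.56 after GC correction, which is under 1.5-fold. The call was also lost with peaks weighted by length (0.54) and with the strongest peak (0.38). With assignment to the nearest transcript start this gene could not be compared, because most of its peak signal went to other genes. Dusp11, an RNA phosphatase, had 83.8 and 75.2 RPKM and a ratio of -0.20 (from -0.40 to -0.0082), and 0.090 in its strongest peak. Dusp12 had a ratio of -0.11 (from -0.56 to 0.35). Dusp19, a small phosphatase of the JNK pathway, had 51.6 and 37.0 RPKM and a ratio of -0.52 (from -1.15 to 0.12), and all 5 of its peaks also lay in Nup35. Of the 11 Dusp genes with enough signal, among 24 in all, 2 were called higher in large intestine and 0 in spleen, where 7.28% and 4.54% of all genes were called.

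Close relatives were set side by side in 11 pairs, chosen with the values known. With summed peaks the interval of the difference left out 0 in 5 pairs: Map2k3 with Map2k6, Dusp10 with Dusp16, Mapkapk2 with Mapkapk3, Mapkapk2 with Mapkapk5, and Map2k1 with Map2k2. The last pair differed by -0.31 (from -0.57 to -0.043), and by -0.13 after GC correction. With GC correction and length weighting together, Map2k1 and Map2k2 were at -0.014 and -0.042, and Mapkapk2 and Mapkapk3 at 0.30 and 0.33, so that both pairs turned. In the other 6 pairs the data could not separate the genes. The interval was wide for Mapk8 with Mapk9 (-0.10, from -0.90 to 0.70) and narrower for Map3k2 with Map3k3 (-0.057, from -0.35 to 0.24).

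Ratios moved with the GC content of the peaks, a pattern shared with peaks of other genes. When the 774 peaks were split into 3 equal groups at 45.2% and 49.4% GC, 38.8%, 52.7% and 73.6% were higher in large intestine. In the same ranges the shares over all peaks in coding gene bodies were 35.6%, 52.4% and 63.0%. Correcting each peak for this trend left 14 genes with an interval above 0 (26.4%; background 12.3%) and 9 with an interval below 0 (17.0%; background 14.1%). Dusp16, Mapkapk2 and Map3k13 had corrected ratios of 1.40, 0.77 and 0.68, and Map2k6 -0.69. Map4k2, whose peaks are 54.0% GC, went from -0.23 to -0.43 (from -0.67 to -0.19).

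**Figure D4:**
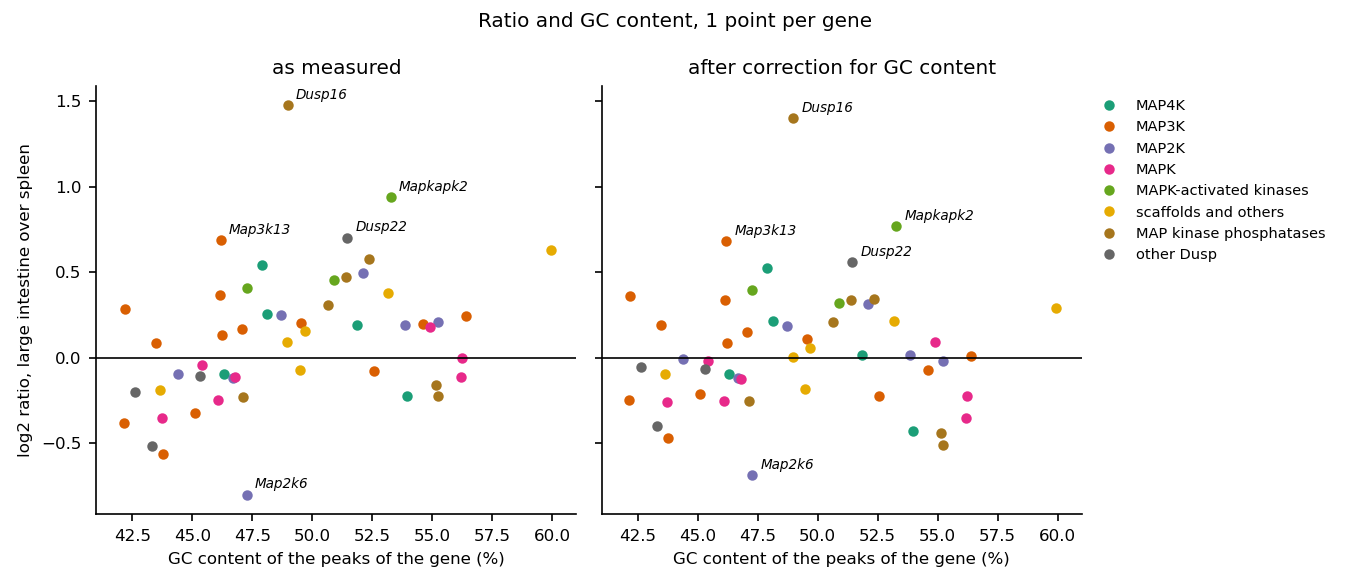
Log2 ratio of large intestine over spleen (y axis) against the mean GC content of the peaks of the gene in percent (x axis) for 52 genes, 1 point per gene coloured by role, as measured (left) and after correction for the trend over all peaks (right). Dusp16 (1.48 and 1.40), Mapkapk2 (0.94 and 0.77), Dusp22 (0.70 and 0.56), Map3k13 (0.69 and 0.68) and Map2k6 (-0.80 and -0.69) keep the ends of the range in both panels.

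A list of 59 further pathway genes, upstream and downstream of the kinases, gave 49 with enough signal, of which 6 were called higher in large intestine (background 7.28%) and 3 in spleen (background 4.54%). Rasgrp4, an activator of Ras, had 49.1 RPKM in spleen against 158 RPKM in large intestine (ratio 1.63). Gadd45g and Gadd45b bind and activate Map3k4. Gadd45g had 15.8 against 36.2 RPKM (1.12, from 0.19 to 2.05), and 0.74 after GC correction. Gadd45b had 22.4 against 45.1 RPKM (0.95, from 0.41 to 1.49), and 0.64 after GC correction. The other calls in this direction were Rras (1.20), Jund (0.74, and 0.26 after GC correction) and Rps6ka5 (0.59), which encode a Ras relative, an AP-1 subunit and a kinase activated by ERK and p38. Among the calls in spleen, Rras2, a Ras relative, had 80.9 against 39.3 RPKM (-1.08), Rasgrp2 had 66.2 against 42.4 RPKM (-0.68), and Rasa3, which switches off Ras and Rap, had 776 against 524 RPKM (-0.61) over 48 peaks. The median ratio of the list was 0.030, beside 0.0045 for all genes. Intervals lay above 0 in 17 genes (34.7%, background 18.5%) and below 0 in 9 (18.4%, background 15.9%). With GC correction they lay above 0 in 8 (16.3%, background 12.3%) and below 0 in 10 (20.4%, background 14.1%).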

How the data were processed

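H3K36me3 ChIP-seq of pooled Treg cells of spleen and large intestine (1 library each, single-end reads of 75 nt) was analysed. The input library was not analysed here. The authors aligned reads to mm10, called peaks of each tissue with MACS2 at p 0.01 against the input, which was splenic chromatin for both tissues, merged the peak sets with bedtools and averaged RPKM coverage tracks over each merged peak. The submitters' processing notes list Bowtie2 and FastQC without a role, and versions are not given in the sources used here. The deposited table is labelled raw counts but holds RPKM, so no count test was run. With 1 library per tissue there is no p-value.

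The 120910 peaks ended within the chromosomes of GRCm38 (0 of 21 chromosomes had a peak past its end). Each peak was assigned to every GENCODE M21 protein-coding gene with the peak midpoint in its body, and values were summed. Each library was scaled to its total over all peaks. The pseudocount was 0.5 RPKM, which understates the change of low genes, and genes needed 20 RPKM over both libraries. Counting intervals took each read as covering 200 bp. Reads were treated as independent molecules. The GC correction subtracted the trend of the log2 ratio over 50 bins of peak GC content. The script that makes the calls was checked on simulated data, which says nothing of the spread between replicates. Python 3.11.15 and numpy 2.4.6 were used.

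Named genes were called genes, genes past 1.5-fold whose interval included 0, the 3 highest levels per library, 4 main MAP kinases, all MAP2K genes and genes next to the threshold; further genes were added after their values were seen. A gene of this rule and a marker gene are not reported here, though counts include them. The members, roles and lists were chosen with earlier results of these data known. Sequences were read from the GRCm38 genome.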

Additional observations from a re-analysis of the deposited data

How the results depend on the processing

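The counts of calls were recomputed under 14 alternatives, of which the overlap rule, 75-base reads, and the GC correction with length weighting were chosen after seeing the data. Of 41 recomputed counts and medians, 30 were taken as unchanged and 11 as moved, within wide limits. A median of 0.010 with GC correction, beside 0.13, counted as unchanged. So did 6 calls in large intestine without scaling, beside 4. The members called higher in large intestine and in spleen (4 and 1) were 1 and 0 with a minimum of 200 RPKM (29 genes left), 1 and 2 with peaks weighted by length, 2 and 3 with the strongest peak of each gene, 2 and 3 with peaks of at least 1 kb, and 2 and 2 with GC correction and length weighting together. With peaks assigned to the nearest transcript start they were 3 and 2. The cause was not tested, except that a minimum of 200 RPKM leaves fewer genes. The median ratio ranged from 0.0012 with GC correction and length weighting to 0.18 without scaling.

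Dusp16 was called under every alternative other than the minimum of 200 RPKM, which it does not reach, and ranged from 0.87 to 1.52. The same held for Map2k6, from -0.93 to -0.60. Mapkapk2 ranged from 0.30 to 0.98 and lost its call with length weighting (0.45, and 0.30 with GC correction added), with the strongest peak and with peaks of at least 1 kb (0.41 in both). Dusp22 (0.38 to 0.75) and Map3k13 (0.24 to 0.73) lost theirs with length weighting (0.54 and 0.57), with the strongest peak (0.38 and 0.24). Neither could be compared with assignment to the nearest transcript start, with peaks of at least 1 kb or with the minimum of 200 RPKM. Dusp22 also lost it with GC correction (0.56), alone and with length weighting. Gene ratios were recomputed under up to 11 alternatives, 556 ratios in all, and 19 of the 26 genes with an interval without 0 kept their sign throughout. The other 7 were Map4k5, Map3k5 and Dusp11 (-0.14, -0.071 and 0.090 with the strongest peak), Map3k12 (-0.0074 with length weighting), Map3k3 (0.070 with the nearest transcript start), Map2k7 (-0.020 with GC correction) and Map2k2 (-0.042 with GC correction and length weighting). Without scaling, Dusp4 and Map4k5 were called too. No paired analysis was possible because each tissue had 1 library. Without replicates no library could be left out.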
